A study of Mus musculus with 6 samples.

Results

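The genes described here are 10 core genes of the Notch pathway in cultured mdx myoblasts. They comprised the ligands Dll1, Jag1 and Jag2, the receptors Notch1, Notch2 and Notch3, the DNA-binding factor Rbpj, and the target genes Hes1, Hey1 and Heyl. They were chosen by gene symbol, each symbol matched 1 of the 47069 genes in the count table, and all 10 were among the 14165 genes with enough counts to be tested. The cells were muscle stem cells (satellite cells) and the myoblasts they give rise to, from mdx mice, which lack dystrophin and serve to model Duchenne muscular dystrophy. They were sorted as Itgb1+ and Itga7+ cells negative for Sca-1, CD45, CD31 and CD11b. The cultures were given vehicle or 10 μM PSB-KD107, a small-molecule agonist of the receptor Gpr18, with 3 libraries in each group. The methods of the study describe Ham's F10 with serum and FGF2 for growth and a low-serum medium for differentiation. Neither medium is tied there to the sequenced cultures. The labels name the controls both as untreated and as vehicle, the treated samples as PSB-KD-1, and the duration as 2 days, whereas the methods of the study describe an overnight treatment. All 6 libraries were from dystrophin-deficient cells in culture, so that no healthy cells and no muscle tissue were compared.

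Notch is a signaling pathway between neighboring cells. A ligand of the Delta or Jagged family on one cell binds a Notch receptor on the next, the receptor is cut by an ADAM protease and then by gamma-secretase, and the freed intracellular domain enters the nucleus, binds Rbpj and switches on targets such as the Hes and Hey repressors. In skeletal muscle the pathway is known for keeping satellite cells quiescent and undifferentiated, and its activity declines as myoblasts leave the cell cycle and fuse.

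The libraries held 30917613 to 48756794 counts, and 3 counts corresponded to 0.0596 to 0.0962 CPM (counts scaled by the TMM-normalized library size), a floor that covers counting error only. All 8 myoblast markers were tested, and their summed level was 8170 to 8428 CPM in the vehicle libraries and 7940 to 8280 CPM in the PSB-KD107 libraries. The largest part of this sum was Des, at 2784 to 3932 CPM, and the sum hides shifts of single markers. Over the 6 libraries Cdh15 lay at 571.8 to 1373 CPM and Myod1 at 398.7 to 1060 CPM. Both stem cell and differentiation genes were found, with the satellite cell factor Pax7 at 26.8 to 68.8 CPM and the satellite cell proteoglycan gene Sdc4 at 117.1 to 186.4 CPM. The differentiation genes were far higher, with Myog at 1175 to 2203 CPM, the actin gene Acta1 at 4572 to 8895 CPM and the embryonic myosin gene Myh3 at 11842 to 18255 CPM. Cd34 and Tek, listed with Sdc4 among the quiescence genes, were at 0.34 to 2.88 CPM and 0.06 to 0.51 CPM. The quiescence marker Calcr was at or under 0.032 CPM. Markers of fibroblasts summed to 1.92 to 10.7 CPM, those of leukocytes to 0.633 to 6.48 CPM, those of endothelial cells to 0.248 to 0.990 CPM and those of Schwann cells to 1.21 to 4.09 CPM over the 6 libraries. The markers Adgre1, Tie1 and Emcn were at 0 in every library, but others of the same lists were detected. The leukocyte markers Itgam and Cd68 were at 0.39 to 4.24 CPM and 0.22 to 3.84 CPM, and the endothelial marker Cdh5 at 0.10 to 0.69 CPM. Ly6a, on the fibroblast list, was at 0.16 to 8.36 CPM, highest in PSB-KD107 library 4. Because these are bulk samples, fewer cells of a type and less RNA per cell cannot be told apart.

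The receptor Notch3 and the targets Heyl and Hey1 were lower in every PSB-KD107 library than in any vehicle library. Their log2 fold changes were -1.12 (SE 0.27), -1.62 (SE 0.43) and -0.82 (SE 0.28). Of the 10 genes, 9 had a lower and 1 a higher mean with PSB-KD107, and the median log2 fold change was -0.53 against -0.00074 for all genes tested. No member passed an adjusted p of 0.05 in edgeR's quasi-likelihood test with Benjamini-Hochberg adjustment, and neither did any other gene, so that the background of that test was 0%. At an unadjusted p under 0.05, 3 members were lower, where this threshold took 9.4% of all genes tested in either direction and 2.93% as lower. DESeq2, run as the alternative, called 2 members as lower, Notch3 and Heyl, against 2.77% of the genes it tested called in either direction and 0.666% as lower. Groups that did not overlap were found for 3 members, all lower, and for 15.8% of all genes tested, with 6.59% lower.

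**Figure D1:**
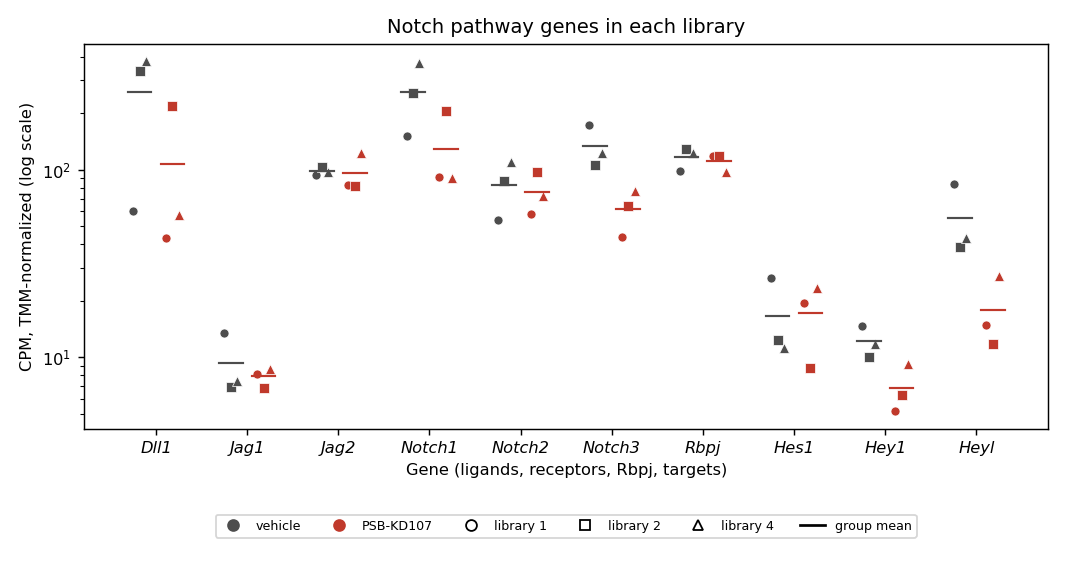
Level of each Notch gene in each library in TMM-normalized CPM on a log axis, with gray symbols for vehicle, red symbols for PSB-KD107, symbol shapes for the library number and a line at each group mean. The gray and red symbols are apart for Notch3, Hey1 and Heyl only, and Dll1 spreads widest within the vehicle group, from 60.0 to 377.5 CPM.

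Dll1 is the Delta-type ligand through which differentiating myoblasts signal to their neighbors. It measured 60.0, 337.1 and 377.5 CPM in vehicle libraries 1, 2 and 4, and 43.4, 218.9 and 57.5 CPM in PSB-KD107 libraries 1, 2 and 4. Both libraries numbered 1 and PSB-KD107 library 4 were low, the other three were high, and the groups overlapped. The mean was 258.2 ± 172.8 CPM with vehicle and 106.6 ± 97.5 CPM with PSB-KD107 (SD, n = 3 each), a log2 fold change of -1.28 with an SE of 0.87 (edgeR adjusted p = 0.699). The spread between replicates was therefore close to the difference, as the highest vehicle library exceeded the lowest 6.29-fold and only 3.64% of the genes tested had a larger ratio. The median of that ratio over all genes tested was 1.32. With 1 library left out, the log2 fold change lay between -2.36 (without PSB-KD107 library 2) and -0.90 (without vehicle library 4).

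The same 3 libraries were also the lowest for Myod1, a myogenic transcription factor, and for Cdh15, an adhesion molecule of myoblasts chosen here after its values were seen. Myod1 measured 515.2, 955.8 and 1060 CPM with vehicle and 398.7, 764.7 and 522.6 CPM with PSB-KD107. Cdh15 measured 637.1, 1183 and 1373 CPM with vehicle and 599.7, 1214 and 571.8 CPM with PSB-KD107. The part of this shared split of the libraries in the Dll1 values was not tested.

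Jag1 and Jag2, the Jagged-type ligands, differed little between the groups. Jag1 was the lowest of the 10 genes per length, with 13.4, 6.93 and 7.48 CPM in the vehicle libraries and 8.13, 6.86 and 8.67 CPM in the PSB-KD107 libraries. Vehicle library 1 stood above all others, the groups overlapped, and the log2 fold change was -0.24 (SE 0.30, edgeR adjusted p = 0.838). Jag2 measured 94.1, 102.7 and 97.7 CPM with vehicle and 83.2, 81.3 and 123.1 CPM with PSB-KD107. PSB-KD107 library 4 was the highest and the other treated libraries the lowest of the 6, so the vehicle values lay inside the treated range, with a log2 fold change of -0.03 (SE 0.18, edgeR adjusted p = 0.964).

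Notch1, the receptor that carries much of the Notch signal in satellite cells, measured 151.2, 257.8 and 369.2 CPM with vehicle and 91.0, 206.5 and 90.2 CPM with PSB-KD107. PSB-KD107 libraries 1 and 4 were the lowest, but PSB-KD107 library 2 lay above vehicle library 1, and the groups overlapped. Its means of 259.4 ± 109.0 and 129.2 ± 66.9 CPM (SD, n = 3 each) gave a log2 fold change of -1.01 (SE 0.45, edgeR adjusted p = 0.585). It lay between -1.52 (without PSB-KD107 library 2) and -0.66 (without vehicle library 4) with 1 library left out.

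Notch2, a receptor close to Notch1 in structure, measured 53.6, 86.7 and 109.4 CPM with vehicle and 57.8, 97.0 and 72.3 CPM with PSB-KD107. The lowest and the highest library were both vehicle libraries. Its log2 fold change was -0.14 (SE 0.30, edgeR adjusted p = 0.909), and its sign depended on which library was included.

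Notch3, a receptor of satellite cells and of the mural cells of vessels, measured 172.9, 105.4 and 122.1 CPM with vehicle and 43.9, 63.6 and 76.5 CPM with PSB-KD107. Every treated library was below every vehicle library, with means of 61.4 ± 16.4 and 133.5 ± 35.1 CPM (SD, n = 3 each). The two-sided exact permutation test gave p = 0.1, the smallest value that 3 against 3 libraries allow. The log2 fold change of -1.12 (SE 0.27) had an adjusted p of 0.281 in edgeR and 0.0103 in DESeq2. Only 1.35% of the genes tested had a lower log2 fold change. With each library left out in turn, its edgeR log2 fold change lay between -1.31 and -0.90, and the DESeq2 call was kept in 3 of 6 cases, with adjusted p-values from 0.000926 to 0.0894.

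Markers of pericytes and smooth muscle, which also express Notch3 and Heyl, summed to 71.2 to 103.3 CPM with vehicle and 36.3 to 92.6 CPM with PSB-KD107, and 3 of 5 were tested. Most of this was Abcc9, a subunit of potassium channels also found in muscle cells, with 91.2, 77.3 and 64.4 CPM with vehicle and 86.3, 68.8 and 22.6 CPM with PSB-KD107. The pericyte gene Rgs5 measured 4.31, 1.95 and 1.83 CPM with vehicle and 1.99, 1.48 and 6.80 CPM with PSB-KD107, and the proteoglycan gene Cspg4 measured 7.45, 5.01 and 4.65 CPM with vehicle and 3.93, 6.09 and 6.88 CPM with PSB-KD107. The groups overlapped for both genes, with log2 fold changes of 0.34 (SE 0.68) and -0.02 (SE 0.31). The smooth muscle myosin Myh11 was at 0.28, 0.29 and 0.28 CPM with vehicle and at 0.26, 0.16 and 0 CPM with PSB-KD107, and Kcnj8 was at 0 in 5 of the 6 libraries. The part of such cells in the Notch3 and Heyl values was not tested.

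Notch3 lies at chr17:32120820-32166852 on the minus strand of GRCm38 and Dll1 at chr17:15367354-15376872 on the same strand. The sequences shown are the 250 bases before a RefSeq start of each (GRCm38.p6), printed because Notch3 was the member with the smallest edgeR p and Dll1 the one with the widest spread. They were searched on both strands for TGGGAA (the core bound by RBPJ), CAGCTG (an E box of the type bound by MyoD) and CACGCG (a class C site of Hes and Hey proteins), and matches are in capitals. The Notch3 stretch, at chr17:32166891-32167140, overlaps no GENCODE exon and held none of the 3 motifs. The Dll1 stretch, at chr17:15376933-15377182, overlaps an exon of the long noncoding RNA A930024N18Rik and held CAGCTG and CACGCG once each. The 250 bases before the other RefSeq start of Dll1, at chr17:15375824-15376073, overlap a Dll1 exon, held none of the 3 motifs and are not printed.
Notch3: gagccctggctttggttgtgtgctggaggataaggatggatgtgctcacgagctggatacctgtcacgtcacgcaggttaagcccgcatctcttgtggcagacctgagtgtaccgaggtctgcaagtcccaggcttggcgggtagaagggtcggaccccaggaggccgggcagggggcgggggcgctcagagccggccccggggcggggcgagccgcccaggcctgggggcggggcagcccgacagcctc
Dll1: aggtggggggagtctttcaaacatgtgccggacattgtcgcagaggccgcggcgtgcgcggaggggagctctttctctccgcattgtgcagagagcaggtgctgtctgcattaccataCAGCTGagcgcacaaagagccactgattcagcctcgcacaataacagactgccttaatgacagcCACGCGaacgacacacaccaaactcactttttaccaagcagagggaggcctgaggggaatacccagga

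Promoter windows of 300 bases, 250 before and 50 after a RefSeq start, were found for 7 of the 10 members (9 windows). None was available for the targets Hes1, Hey1 and Heyl, so these were not searched. TGGGAA occurred in 2 of the 9 windows, both of Rbpj, and in 25.6% of 32851 windows of all genes. CAGCTG occurred in 2 of the 9 windows, of Dll1 and Jag1, and in 16.3% of all windows. CACGCG occurred in 4 of the 9 windows, of Dll1, Jag1, Jag2 and Notch2, and in 9.27% of all windows. A match is a description of the letters only, and the absence of one says nothing on binding elsewhere.

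Rbpj, the factor through which all Notch receptors act on DNA, was the member with the smallest relative spread next to Jag2 in the vehicle group. It measured 98.7, 129.3 and 122.1 CPM with vehicle and 118.5, 118.7 and 97.6 CPM with PSB-KD107. The lowest library was a treated one, the highest a vehicle one, and the groups overlapped throughout. Its log2 fold change was -0.06 (SE 0.14, edgeR adjusted p = 0.907). The RBPJ core began 149 and 65 bases before a start of Rbpj itself. Both cores are shown with flanking bases, in stretches of 26 bases at chr5:53590187-53590212 and chr5:53590271-53590296 on the plus strand of GRCm38.p6, with the core, or its reverse complement, in capitals.
Rbpj, 149 bases before the start: tgaaaaaggcTGGGAAcccgcggcga
Rbpj, 65 bases before the start: cgctcgcattTTCCCAggacccctcc

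Hes1, a repressor and direct Notch target in many tissues, was the only member with a higher mean in the treated group. It measured 26.3, 12.4 and 11.1 CPM with vehicle and 19.5, 8.76 and 23.3 CPM with PSB-KD107. The values of the groups were interleaved, with a log2 fold change of 0.05 (SE 0.48, edgeR adjusted p = 0.979), and its sign depended on the library left out.

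Hey1, a Notch target that holds satellite cells undifferentiated, measured 14.7, 10.0 and 11.8 CPM with vehicle and 5.15, 6.29 and 9.19 CPM with PSB-KD107. Every treated library was below every vehicle library, with a narrow gap between 9.19 and 10.0 CPM. Its means were 12.2 ± 2.36 and 6.87 ± 2.08 CPM (SD, n = 3 each), and the two-sided exact permutation test gave p = 0.1. The log2 fold change of -0.82 (SE 0.28) had an adjusted p of 0.439 in edgeR and 0.143 in DESeq2.

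Heyl, which is known to act with Hey1 in satellite cells, had the largest fold change of the 10 genes. It measured 83.4, 38.5 and 43.1 CPM with vehicle and 14.8, 11.7 and 27.2 CPM with PSB-KD107. Vehicle library 1 stood well above the others, and every treated library was below every vehicle library. The means were 55.0 ± 24.7 and 17.9 ± 8.23 CPM (SD, n = 3 each), the two-sided exact permutation test gave p = 0.1, and 0.388% of the genes tested had a lower log2 fold change. The log2 fold change of -1.62 (SE 0.43) had an adjusted p of 0.340 in edgeR and 0.0111 in DESeq2. With each library left out in turn it lay between -2.05 and -1.19, and the DESeq2 call was kept in 2 of 6 cases, with adjusted p-values from 3.4e-05 to 0.121. No other GENCODE gene overlaps Hes1, Hey1, Heyl or Jag1, and those overlapping the other members held at most 116 counts in any library.

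**Figure D2:**
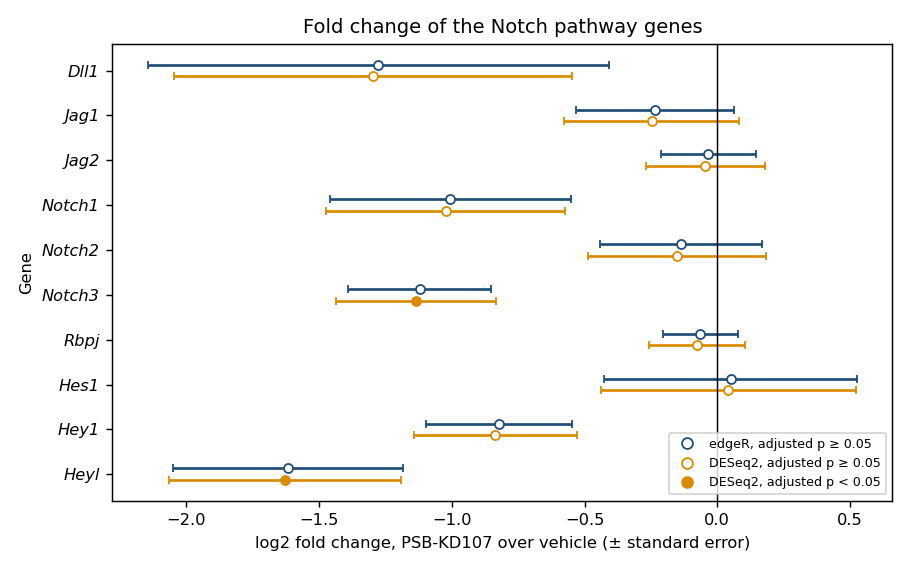
Log2 fold change of each Notch gene, PSB-KD107 over vehicle, with bars of 1 standard error, in edgeR (blue) and DESeq2 (orange), filled where the adjusted p is under 0.05. The edgeR standard errors are derived from its F statistic. Filled symbols appear for Notch3 and Heyl in DESeq2 alone, and the widest bars belong to Dll1 (edgeR -1.28, SE 0.87).

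Levels of different genes can be compared per exon length, in FPKM (CPM per kilobase of merged exons). In the vehicle group Dll1 had the highest mean with 61.2 ± 41.0 FPKM, followed by Notch1 with 18.2 ± 7.66, Notch3 with 16.5 ± 4.34, Jag2 with 14.1 ± 0.623, Heyl with 10.8 ± 4.83, Rbpj with 9.15 ± 1.26, Hes1 with 8.15 ± 4.13 and Notch2 with 7.72 ± 2.61 FPKM (SD, n = 3 each). The vehicle values of each of these overlapped those of the next in this order. Hey1 with 3.72 ± 0.723 and Jag1 with 1.59 ± 0.620 FPKM were below all of them and apart from each other.

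Summed over Notch1, Notch2 and Notch3, receptor RNA was 37.0, 39.2 and 51.2 FPKM with vehicle and 17.2, 31.4 and 22.5 FPKM with PSB-KD107. The groups did not overlap (two-sided exact permutation p = 0.1). Within that sum, Notch2 made up 13.4, 20.5 and 19.8% with vehicle and 31.2, 28.7 and 29.8% with PSB-KD107, a mean of 17.9 ± 3.90% against 29.9 ± 1.27% (SD, n = 3 each; two-sided exact permutation p = 0.1). This share was therefore higher in every treated library, although the Notch2 level itself did not separate the groups. The sum and the shares are computed from the receptor values given above and were chosen after these were seen. They are thus no result separate from the lower Notch1 and Notch3 means. The shares of Notch1 and Notch3 overlapped between the groups (exact permutation p = 0.6 for each).

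Among the ligands, Dll1 made up 47.4, 83.4 and 85.4% of the summed FPKM with vehicle and 43.5, 80.2 and 41.6% with PSB-KD107. Its share followed the same split of libraries as its level, and in PSB-KD107 libraries 1 and 4 Jag2 was the more abundant ligand, with 50.6 and 53.9% of the sum. The exact permutation p for the Dll1 share was 0.2.

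**Figure D3:**
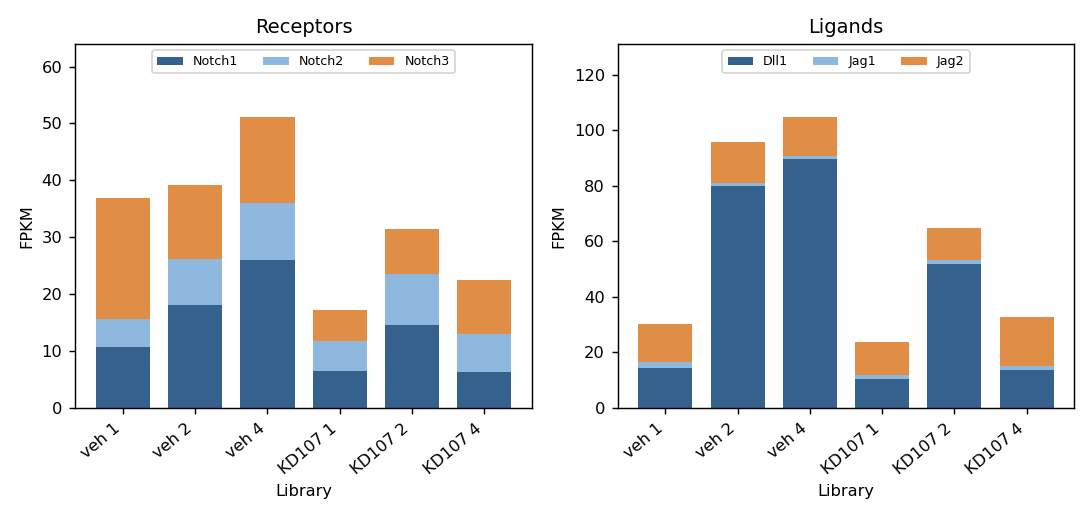
Stacked bars of receptor RNA (left) and ligand RNA (right) in each library in FPKM, from 0, with 1 color per gene. The receptor bars are 37.0 to 51.2 FPKM tall with vehicle and 17.2 to 31.4 FPKM with PSB-KD107, and Dll1 makes up 41.6 to 85.4% of the ligand bars.

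Across the 6 libraries some pairs of members varied together, and the pairs given here are a selection. They are a description only, since these libraries come from different conditions and share depth and composition within each. On log2 CPM, Notch3 and Hey1 had a Pearson r of 0.98, and 0.94 for the deviations from the group means. Hey1 and Heyl had an r of 0.96 (0.86 within groups), and Dll1 and Notch1 an r of 0.94 (0.95 within groups). Hes1 ran opposite to Dll1, with an r of -0.86 (-0.96 within groups). Other pairs ran opposite mainly within the groups. Heyl and Rbpj had an r of -0.34 (-0.97 within groups), and Dll1 and Heyl an r of 0.06 (-0.79 within groups). The genes most like Hes1 over the 6 libraries were Rps3a1, Slc22a17 and Top2b (r = 0.997, 0.996 and 0.994). Those most like Hey1 were Actc1, Chst3 and Pcdh18 (r = 0.991, 0.988 and 0.984), and those most like Heyl were Sparc, Ror1 and Dynll1 (r = 0.989, 0.985 and 0.984).

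The other genes of the pathway were taken from 6 lists with 65 genes, of which 54 were tested. With PSB-KD107, 34 of these had a lower and 20 a higher mean, and their median log2 fold change was -0.06. At an unadjusted p under 0.05, 3 were lower and 3 higher, that is 6 of 54 beside the 9.4% of all genes. None passed the adjusted threshold in edgeR, and DESeq2 called 1 lower and 1 higher. Of all genes that DESeq2 tested, 2.77% were called in either direction and 0.666% as lower.

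The called gene that was lower was Lfng, a Fringe glycosyltransferase that modifies Notch receptors and alters their response to ligands. Its levels were 7.12, 10.4 and 14.1 CPM with vehicle and 1.21, 5.39 and 1.40 CPM with PSB-KD107. All treated libraries were below all vehicle libraries, with a log2 fold change of -1.99 (SE 0.65, adjusted p = 0.433 in edgeR and 0.0385 in DESeq2). Of the 5 glycosylation genes, all tested, 4 had a lower and 1 a higher mean, and Lfng alone had an unadjusted p under 0.05.

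The called gene that was higher was Myc, a growth-promoting transcription factor that Notch can induce. It measured 13.8, 14.2 and 14.2 CPM with vehicle and 23.8, 20.1 and 27.3 CPM with PSB-KD107. The vehicle values were nearly equal and all treated values were above them, with a log2 fold change of 0.76 (SE 0.15, adjusted p = 0.228 in edgeR and 0.00387 in DESeq2). In its list of further Hes, Hey and target genes all 7 tested genes of 12 had a higher mean, and the median log2 fold change was 0.22. These changes ranged from 0.015 (SE 0.87) for Ccnd1 to 1.90 (SE 0.78) for Bhlhe40, and some were far below their SE. Nrarp had a log2 fold change of 0.16 (SE 0.82). Its PSB-KD107 values were 1.09, 0.90 and 5.83 CPM, so that its higher mean came from library 4 alone. The other gene of that list under the unadjusted threshold was Bhlhe41, a repressor related to the Hes family, with 97.4, 97.2 and 89.3 CPM in the vehicle libraries and 111.2, 129.0 and 135.0 CPM in the PSB-KD107 libraries. These groups did not overlap either, and the log2 fold change was 0.40 (SE 0.11, edgeR adjusted p = 0.326).

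Of the ubiquitination and trafficking genes, 8 of the 12 tested had a lower mean and 2 of these had an unadjusted p under 0.05. Numbl, a relative of the Notch antagonist Numb, had a log2 fold change of -0.53 (SE 0.18, edgeR adjusted p = 0.438), with 108.2 to 120.6 CPM in vehicle and 64.8 to 100.3 CPM in PSB-KD107. Neurl1a, an E3 ligase acting on ligands, had a log2 fold change of -0.43 (SE 0.17, edgeR adjusted p = 0.520), with 256.0 to 332.7 CPM in vehicle and 180.5 to 248.1 CPM in PSB-KD107. The groups were apart for both genes. Among the nuclear cofactors, 12 of 17 tested genes had a lower and 5 a higher mean, and the acetyltransferase gene Kat2b had the only unadjusted p under 0.05. It measured 28.0, 26.5 and 23.0 CPM with vehicle and 32.7, 31.1 and 34.4 CPM with PSB-KD107, a log2 fold change of 0.34 (SE 0.12, edgeR adjusted p = 0.457).

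The proteases that cut the receptors, ADAM proteases and gamma-secretase subunits, differed little. Of 10 genes, all tested, 7 had a lower and 3 a higher mean, the median log2 fold change was -0.05, and the smallest unadjusted p, that of the presenilin gene Psen2, was 0.0981 in edgeR, with a log2 fold change of -0.62. Of the other ligands and receptors, 3 of 6 were tested and had lower means, with no unadjusted p under 0.05. The smallest was that of Dner, a noncanonical ligand, with 11.6, 40.3 and 33.4 CPM in vehicle and 9.08, 41.4 and 2.97 CPM in PSB-KD107. These groups overlapped widely (log2 fold change -0.68, SE 0.96, edgeR adjusted p = 0.853).

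**Figure D4:**
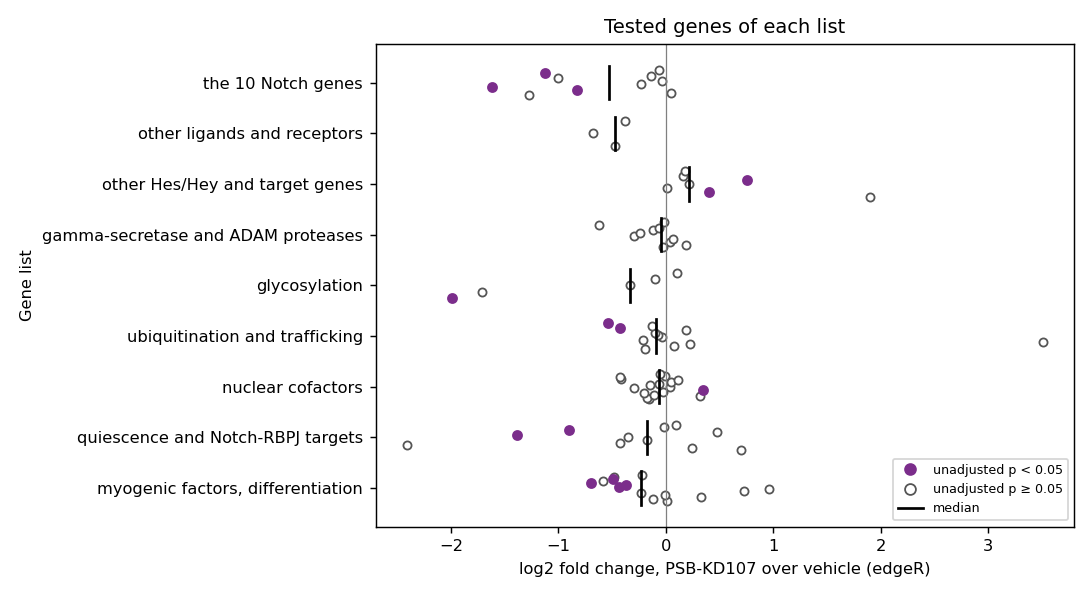
Log2 fold change (PSB-KD107 over vehicle, edgeR) of the tested genes of each list, 1 circle per gene, filled where the unadjusted p is under 0.05, with a bar at the median. The median is -0.53 for the 10 Notch genes and -0.06 over the 54 other pathway genes.

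Genes of satellite cell quiescence and targets of Notch and RBPJ in satellite cells differed mostly by less than the spread of the replicates. Of these 13 genes, 11 were tested, 7 with a lower and 4 with a higher mean. At an unadjusted p under 0.05, 2 were lower, where this threshold took 2.93% of all genes tested as lower. Pax7, the defining transcription factor of satellite cells, measured 68.8, 49.9 and 60.0 CPM with vehicle and 34.0, 26.8 and 35.1 CPM with PSB-KD107. The groups were well apart, with a log2 fold change of -0.90 (SE 0.17, adjusted p = 0.209 in edgeR and 0.00193 in DESeq2). Col6a1, a collagen chain of the satellite cell niche, measured 151.2, 71.1 and 76.4 CPM with vehicle and 24.4, 20.6 and 69.8 CPM with PSB-KD107. PSB-KD107 library 4 lay just below the vehicle range, and the log2 fold change was -1.38 (SE 0.56, edgeR adjusted p = 0.523).

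The myogenic factors and early differentiation genes were all tested, 10 of 14 with a lower mean. Beside 2.93% of all genes tested, 4 were lower at an unadjusted p under 0.05. These were Myog (2042, 2203 and 2158 CPM with vehicle, 1175, 1726 and 1661 CPM with PSB-KD107), the fusion genes Mymk and Mymx, and the embryonic myosin gene Myh3. Mymk lay at 1306 to 1389 CPM with vehicle and 966 to 1119 CPM with PSB-KD107, and the groups were apart for all 4 genes. Their log2 fold changes were -0.49 (SE 0.18), -0.37 (SE 0.11), -0.70 (SE 0.20) and -0.44 (SE 0.17). DESeq2 called Mymk and Myh3 with adjusted p-values of 0.0480 and 0.0328, beside 0.666% of all genes it called as lower. Myf5, a factor of early myoblasts, measured 3.57, 18.6 and 21.3 CPM with vehicle and 4.23, 40.9 and 26.8 CPM with PSB-KD107, and Myod1 had a log2 fold change of -0.59 (SE 0.35). The values differed among the other differentiation genes of the list, where the actin gene Acta1, the transcription factor gene Mef2c, the creatine kinase gene Ckm and Myf6 had log2 fold changes of 0.0070 (SE 0.31), -0.0049 (SE 0.38), 0.33 (SE 0.51) and 0.96 (SE 0.60). Notch3, Hey1, Heyl, Pax7, Myog, Mymk, Mymx and Myh3 were thus each lower in every PSB-KD107 library than in any vehicle library. So were Col6a1, Lfng, Numbl and Neurl1a. All of these had an unadjusted p under 0.05, a threshold that by itself favors groups that are apart. Of the pathway genes above that threshold, Ncstn, Hdac1 and Tle2 were also lower without overlap. In the opposite direction, Myc, Bhlhe41, Kat2b and Mib2 were higher in every PSB-KD107 library than in any vehicle library. Of all genes tested, 6.59% were lower without overlap and 15.8% were apart in either direction. The part of the makeup of the cultures in the Notch values was not tested.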

How the data were processed

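RNA of mdx myoblasts given vehicle or PSB-KD107 was measured in 3 libraries per group, made from poly(A) RNA and read from both ends on a NovaSeq instrument. The authors aligned the reads with STAR to the mouse genome (mm10 per the submitters' processing notes) and deposited the raw counts of each gene without normalizing them. The counting program, its annotation and its strand setting are not given in the sources used here, so that counts of overlapping genes are uncertain. The labels number the libraries 1, 2 and 3, whereas the columns of counts are numbered 1, 2 and 4. Libraries numbered 4 were assigned to their group only. The labels do not say that libraries came from separate cultures, whereas the methods of the study name 3 mice. If they were technical replicates, p-values measure only the spread between these libraries.

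Counts were filtered with filterByExpr (14165 of 47069 genes kept), scaled with TMM factors and tested across all genes with the quasi-likelihood test of edgeR 4.0.16 in R 4.3.3, with Benjamini-Hochberg adjustment and a threshold of 0.05. The edgeR SE was derived as the absolute log2 fold change over the square root of the F statistic of that test. DESeq2 1.42.0 was the main alternative, with the SE of its own fit. Others were scaling by RLE, omission of the low-count filter, an FPKM minimum of 1, DESeq2 with a 2-fold change, the replicate number as a block, and each library left out. DESeq2 with each library left out, libraries numbered 1 and 2 without a block, and the robust and newer quasi-likelihood fits were added after seeing the data. FPKM used the merged exon length of GENCODE M21 (GRCm38), which has an entry for 46574 of the 47069 identifiers. Promoter sequences are from RefSeq (GRCm38.p6). Correlations used log2 of CPM plus 0.1. The scripts were tested on simulated data.

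The members and gene lists (131 genes) were chosen with earlier results of these data known. Named were the members, the genes of each list with an unadjusted p under 0.05 (at most 4, or that with the smallest p), Pax7, Myf5, Myod1 and Myog, and the 3 genes most correlated with Hes1, Hey1 and Heyl. Receptor and ligand shares and the cell type markers given singly were chosen after values were seen. So were Sdc4, Calcr, Cd34, Tek, Acta1, Mef2c, Ckm, Myf6, Ccnd1, Nrarp, Bhlhe40, Dtx3l, Cdkn1c, Ncstn, Hdac1, Tle2 and Mib2.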

Additional observations from a re-analysis of the deposited data

How the results depend on the processing

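Notch3, Hey1, Heyl, Notch1 and Dll1 were lower with PSB-KD107 under all 15 alternatives computed for each member, although Dll1 moved from -1.28 to between -2.36 and -0.90 and Notch1 from -1.01 to between -1.52 and -0.66 with 1 library left out, and to -0.55 and -0.53 with the block on libraries 1 and 2. The median over the members moved by less than the spread between libraries. The number of genes called was 0 in edgeR, 8 without the low-count filter, 407 in DESeq2 and 189 in DESeq2 with a 2-fold change and the FPKM minimum. Both DESeq2 settings called 2 members. Leaving out 1 library, DESeq2 called 164 to 763 genes and 0 to 3 members, with 0 members without vehicle library 1, vehicle library 4 or PSB-KD107 library 1. Of the other pathway genes, 6 had an unadjusted p under 0.05 in edgeR, 2 to 14 with 1 library left out (2 without vehicle library 4, 14 without PSB-KD107 library 2), and 2 on libraries 1 and 2 with no block. The cause of these differences was not tested. The study names 3 mice without tying library numbers to them, and the replicate numbers were not taken as pairs, as deviations from the group means correlated at 0.63, 0.52 and -0.13 for numbers 1, 2 and 4 over 14165 genes, and vehicle library 4 matched PSB-KD107 library 2 best (0.64). A replicate block over all 6 libraries called 0 genes, with 3 members at an unadjusted p under 0.05. A replicate block on libraries 1 and 2 called 2456 genes and 7 members, from 4 libraries with 1 residual degree of freedom. At an unadjusted p under 0.05 were 7 members and 20 other pathway genes. The number of genes tested in this fit and the share of all genes under the unadjusted threshold were not recorded. These counts therefore have no background beside them. The log2 fold change changed sign for 5 members. Notch2 was 0.14 on libraries 1 and 2 with and without the block and -0.38 to 0.11 with 1 library left out. Hes1 was -0.46 with the block, -0.45 without it, and -0.23 to 0.55. Rbpj was 0.070, 0.056, and -0.18 to 0.023. Jag1 was -0.42 to 0.13 and Jag2 -0.26 to 0.066 with 1 library left out. With 3 libraries per group, the size of the changes in Dll1 and Notch1 was not resolved from the replicate spread.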

Other observations

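Dtx3l, an E3 ligase of the Deltex family on the ubiquitination list, measured 1.86, 4.61 and 4.84 CPM in the vehicle libraries and 2.29, 2.63 and 123.3 CPM in the PSB-KD107 libraries, so that its higher mean came from PSB-KD107 library 4 alone. Cdkn1c, the cell cycle inhibitor p57 on the quiescence list, measured 232.4, 2478 and 3889 CPM with vehicle and 89.4, 1086 and 72.2 CPM with PSB-KD107, and its low and high libraries were the same as those of Dll1 (log2 fold change -2.40, SE 1.40).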
